A study of Bos taurus with 18 samples.

Results

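CD40, CD83, CD47 and CD200 encode cell surface proteins through which one cell stimulates or restrains an immune cell that touches it. These 4 genes were taken as a set by their known roles, with earlier results of these data known. They are 4 of the 36075 genes in the count table and 4 of the 17931 that had enough counts to be tested. Their Ensembl identifiers are ENSBTAG00000020736 for CD40, ENSBTAG00000057202 for CD83, ENSBTAG00000003585 for CD47 and ENSBTAG00000033319 for CD200. The identifiers were found through the study's own lists of genes that responded to rbCAPG, in bESCs for CD40 and in bEECs for CD83, CD47 and CD200. The response to rbCAPG is therefore described here for both cell types and is not independent evidence. The comparisons with rbPDI share the same vehicle control (VC) samples.

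CD40 is a receptor of the TNF receptor family that is bound by CD40 ligand on activated T cells and signals through TRAF adaptors to the transcription factor NF-kB. CD83 is an immunoglobulin-like surface protein best known from mature dendritic cells, which present antigen and costimulate T cells. CD47 binds SIRP-alpha on macrophages and dendritic cells and restrains phagocytosis, and CD200 binds its receptor on myeloid cells and restrains their activation. In the endometrium of early pregnancy, signals of both kinds are studied because the mother's immune cells meet the tissue of a conceptus that carries paternal antigens.

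RNA was sequenced from 18 samples of a 3D microfluidic device that models bovine endometrium, in which a porous membrane separated primary bovine endometrial epithelial cells (bEECs), in a chamber under flow, from primary bovine endometrial stromal cells (bESCs), in a static chamber. There were 3 treatments, given on the epithelial side for 24 h. They were VC (PBS), recombinant bovine CAPG (rbCAPG), an actin-capping protein, and recombinant bovine PDI (rbPDI), a protein-folding enzyme, the proteins at 1 µg/mL each. Both are factors made by the conceptus, and the question was how each cell type responds to them. Each cell type and treatment had n = 3 samples, 1 from each of 3 animals, and the cells of both types in a device came from the same animal. The animals were in the late luteal phase, as judged from ovaries of abattoir tracts, and the cells were passaged and purified by differential trypsinization before use, with purity judged by microscopy. No immune cells were added to the device.

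Total counts ran from 10072851 in bESC rbPDI sample 1 to 44253149, with the next lowest at 20488416 in bESC VC sample 1. Levels are given as CPM, which are counts scaled to the library size with TMM factors, and they compare samples for 1 gene but not different genes, since gene lengths were not used here. The epithelial markers MUC1, OCLN and AGR2 were each called higher in bEECs with every treatment, and the stromal markers COL6A1, HAND2, ZEB1 and VCAN were each called higher in bESCs. These are 3 of 14 listed epithelial and 4 of 14 listed stromal markers, and the others, such as the keratins and collagen I, have no identifier here and were not checked. Since these are bulk samples, fewer cells of a type and less RNA per cell cannot be told apart.

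The clearest difference was in CD40 of bEECs, which was 5.41-fold higher with rbCAPG than with VC and 8.39-fold higher with rbPDI. CD83 and CD200 also rose in bEECs with rbPDI. In bESCs, CD40 rose with rbPDI. In each animal and each cell type, all 4 genes were higher with either protein than with VC.

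CD40, the receptor for T-cell help, was measured in bEECs at 11.9, 6.76 and 12.6 CPM with VC (replicates 1, 2 and 3). With rbCAPG it was at 61.7, 54.0 and 53.7 CPM, and with rbPDI at 112.9, 81.1 and 68.7 CPM. The 3 groups did not overlap, with VC lowest and rbPDI highest. Against VC, CD40 rose with rbCAPG by a log2 fold change of 2.44 ± 0.34 (SE, adjusted p = 9.10e-04) and with rbPDI by 3.07 ± 0.34 (adjusted p = 1.09e-04), by edgeR's quasi-likelihood test with Benjamini-Hochberg adjustment over all tested genes. Within animals the log2 difference of rbCAPG from VC was 2.32, 2.91 and 2.05, and that of rbPDI from VC was 3.19, 3.49 and 2.40. Both were largest in animal 2, whose VC sample held the lowest level.

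In bESCs, CD40 was at 44.2, 35.8 and 21.6 CPM with VC. It was at 116.7, 67.8 and 64.3 CPM with rbCAPG and at 134.6, 114.4 and 78.9 CPM with rbPDI. Both protein groups lay above all VC samples, and the protein groups overlapped each other. CD40 rose with rbPDI by 1.69 ± 0.33 on the log2 scale (adjusted p = 0.0494). This call lay at the threshold. It was lost when any 1 of the 6 samples was left out (adjusted p from 0.0556 to 0.275) and when only the bESC samples were fitted (adjusted p = 0.224), and with counts scaled by library totals it was not called either (adjusted p = 0.0907). With rbCAPG the log2 difference was 1.29 ± 0.32 with an adjusted p of 0.383. With the animal as a block, which compares samples of 1 animal with each other, CD40 was called with rbCAPG as well, with an SE of 0.21 in place of 0.32 (adjusted p = 0.0124, and over its 13 alternatives from 0.0124 to 1). With rbPDI the block gave 1.72 ± 0.21 (adjusted p = 0.00134) and DESeq2's Wald test gave 1.69 (adjusted p = 4.84e-05). Of the 13 alternatives for CD40 with rbPDI in bESCs, 5 called it.

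**Figure D1:**
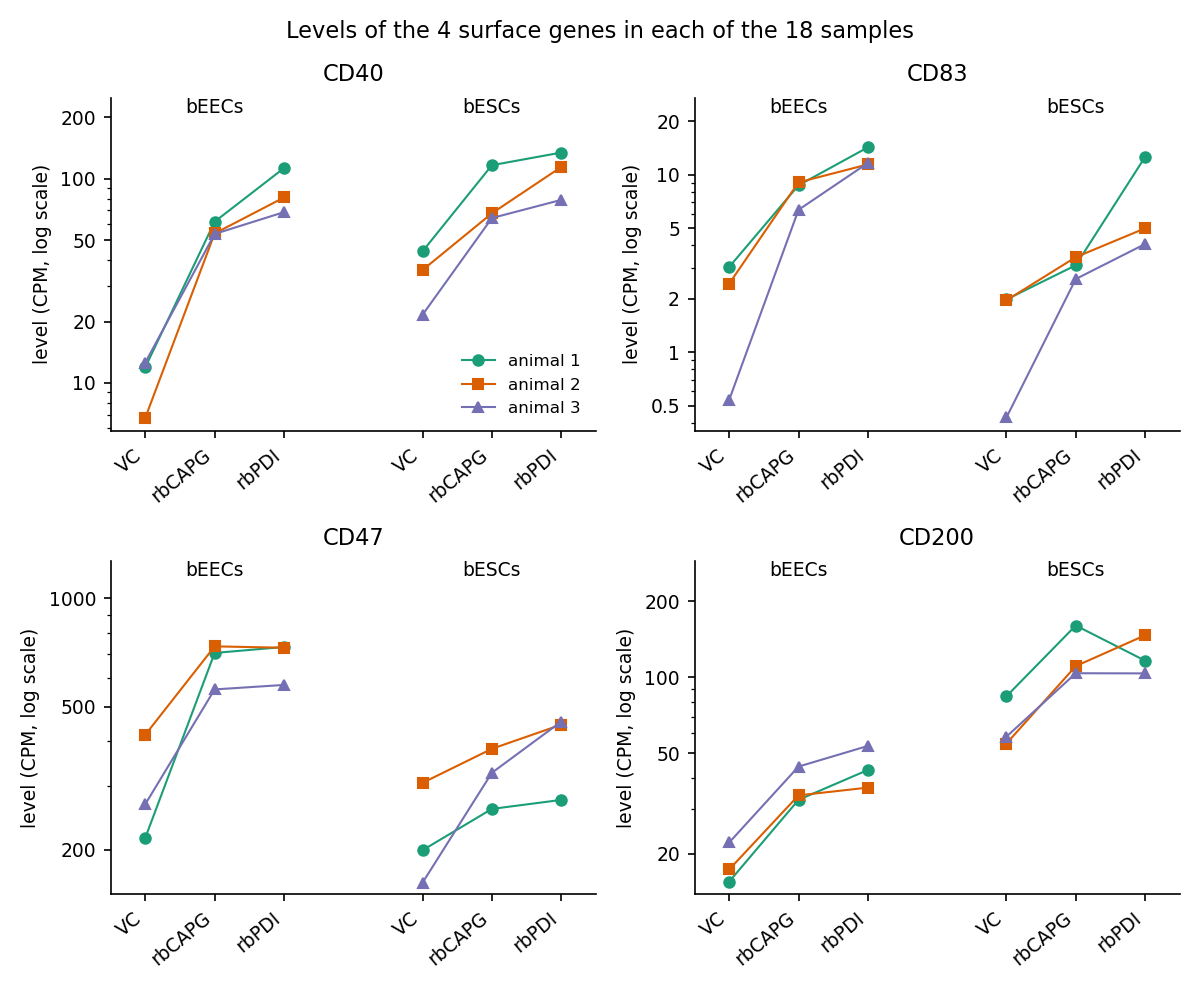
Levels of CD40, CD83, CD47 and CD200 in CPM (vertical axis, log scale) in each sample of bEECs and bESCs with VC, rbCAPG or rbPDI (horizontal axis). Lines join the 3 samples of 1 animal, and every line goes up from VC to either protein.

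CD83, the marker of mature dendritic cells, had the fewest reads of the set, from 18 to 434 counts per sample. In bEECs it was at 3.02, 2.43 and 0.538 CPM with VC, at 8.72, 9.06 and 6.34 CPM with rbCAPG and at 14.3, 11.4 and 11.7 CPM with rbPDI. The 3 groups did not overlap, and the VC sample of animal 3 stood lowest, at 18 counts. CD83 rose with rbPDI by 2.64 ± 0.59 on the log2 scale (adjusted p = 0.0436). That call was lost when any 1 of the 6 samples was left out (adjusted p from 0.0738 to 0.175) and when counts were scaled by library totals (adjusted p = 0.111). The call held with the animal as a block, at 2.80 ± 0.45 (adjusted p = 0.00262), and by DESeq2's Wald test (adjusted p = 9.74e-05). In all, 6 of 13 alternatives called it. With rbCAPG the log2 difference was 2.01 ± 0.58 (adjusted p = 0.193). It was called with rbCAPG too when the animal was a block, at 2.13 ± 0.44 (adjusted p = 0.0191 and range over 13 alternatives 0.0133 to 0.580).

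In bESCs, CD83 was at 1.98, 1.96 and 0.428 CPM with VC and at 3.09, 3.43 and 2.58 CPM with rbCAPG. With rbPDI it was at 12.6, 4.99 and 4.07 CPM. The groups did not overlap, and the highest rbPDI value came from the shallowest library, where it rested on 145 counts. The log2 difference from VC was 1.07 ± 0.57 with rbCAPG (adjusted p = 1) and 2.30 ± 0.59 with rbPDI (adjusted p = 0.187), which was 1.65 ± 0.56 without that library (adjusted p = 0.644). When the animal was a block, CD83 was called with rbPDI, at 2.31 ± 0.45 (adjusted p = 0.0205 and range over 13 alternatives 0.00374 to 0.657).

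CD47, the signal that restrains phagocytosis, was at 216, 418 and 268 CPM in VC bEECs. It was at 705, 736 and 558 CPM with rbCAPG and at 733, 729 and 575 CPM with rbPDI. Both protein groups lay above VC and close to each other. The log2 differences were 1.15 ± 0.31 with rbCAPG (adjusted p = 0.149) and 1.18 ± 0.31 with rbPDI (adjusted p = 0.0991), and neither passed the test. Under the block both were called, at 1.18 ± 0.25 with rbCAPG (adjusted p = 0.0232 and range over 13 alternatives 0.0135 to 0.624) and 1.21 ± 0.25 with rbPDI (adjusted p = 0.0150 and range 0.00635 to 0.432).

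In bESCs, CD47 was at 199, 307 and 162 CPM with VC, at 260, 382 and 327 CPM with rbCAPG and at 275, 445 and 454 CPM with rbPDI. Here each protein group overlapped VC. Animal 2 was the highest with VC, and animal 1 was the lowest with each protein. The log2 differences were 0.54 ± 0.30 with rbCAPG (adjusted p = 1) and 0.81 ± 0.30 with rbPDI (adjusted p = 0.686). CD47 was called in bESCs under none of the alternatives run, and the block gave adjusted p = 0.871 with rbCAPG (range 0.871 to 1) and 0.191 with rbPDI (range 0.191 to 1).

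CD200, the ligand that restrains myeloid cells, was at 15.5, 17.4 and 22.2 CPM in VC bEECs. It was at 32.7, 34.1 and 44.3 CPM with rbCAPG and at 43.0, 36.6 and 53.5 CPM with rbPDI. Animal 3 was the highest in all 3 groups, and both protein groups lay above VC. CD200 rose with rbPDI by 1.27 ± 0.25 on the log2 scale (adjusted p = 0.0164). The call was lost without bEEC VC sample 1, bEEC VC sample 2 or bEEC rbPDI sample 3 (adjusted p = 0.117, 0.0793 and 0.0889), and with counts scaled by library totals (adjusted p = 0.0888). It held with the animal as a block, at 1.27 ± 0.19 (adjusted p = 0.00133), and by DESeq2's Wald test (adjusted p = 1.07e-05). In all, 9 of 13 alternatives called it. With rbCAPG the log2 difference was 1.01 ± 0.25 (adjusted p = 0.0981). Under the block it was called, at 1.02 ± 0.19 (adjusted p = 0.00951 and range over 13 alternatives 0.00234 to 0.484), just past the fold limit of 1.

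In bESCs, CD200 was at 84.2, 54.7 and 58.3 CPM with VC. It was at 160.6, 110.9 and 103.9 CPM with rbCAPG and at 116.5, 146.9 and 103.7 CPM with rbPDI. Both protein groups lay above VC. The log2 differences of 0.93 ± 0.24 with rbCAPG (adjusted p = 0.454) and 0.90 ± 0.24 with rbPDI (adjusted p = 0.243) did not pass the test. With the block their adjusted p-values were 0.0417 (range over 13 alternatives 0.0202 to 1) and 0.0243 (range 0.0175 to 0.811), but the fold changes stayed under the limit. Of the 18 values of CD200, 13 were not whole, since reads that matched several places or genes were divided. For CD40 this held for 4 of 18 values, for CD83 for 1 and for CD47 for 7.

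Over the set, 1 of 4 genes was called in bEECs with rbCAPG (CD40), against 0.513% of all tested genes. With rbPDI, 3 of 4 were called in bEECs, against 0.809%. In bESCs, 0 of 4 were called with rbCAPG by edgeR with group means, against 0.0948%, although 2 of 4 (CD40 and CD200) had an unadjusted p under 0.05, against 2.74%, and DESeq2 called 1 of 4 (CD40), against 0.396%. With rbPDI, 1 of 4 was called in bESCs, against 0.178%. With the animal as a block the counts were 4 of 4 in bEECs with either protein, against 2.19% of all genes with rbCAPG and 2.96% with rbPDI. In bESCs the blocked counts were 1 of 4 with rbCAPG, against 0.480%, and 2 of 4 with rbPDI, against 1.05%. The samples with the protein lay above those with VC, without overlap, for 4 of 4 genes in bEECs with each protein, against 8.72% of all tested genes with rbCAPG and 8.06% with rbPDI. In bESCs this held for 3 of 4 with each protein, against 3.02% and 4.10%. These are counts over 4 genes that were found through the rbCAPG lists, and both proteins were compared with the same VC samples.

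**Figure D2:**
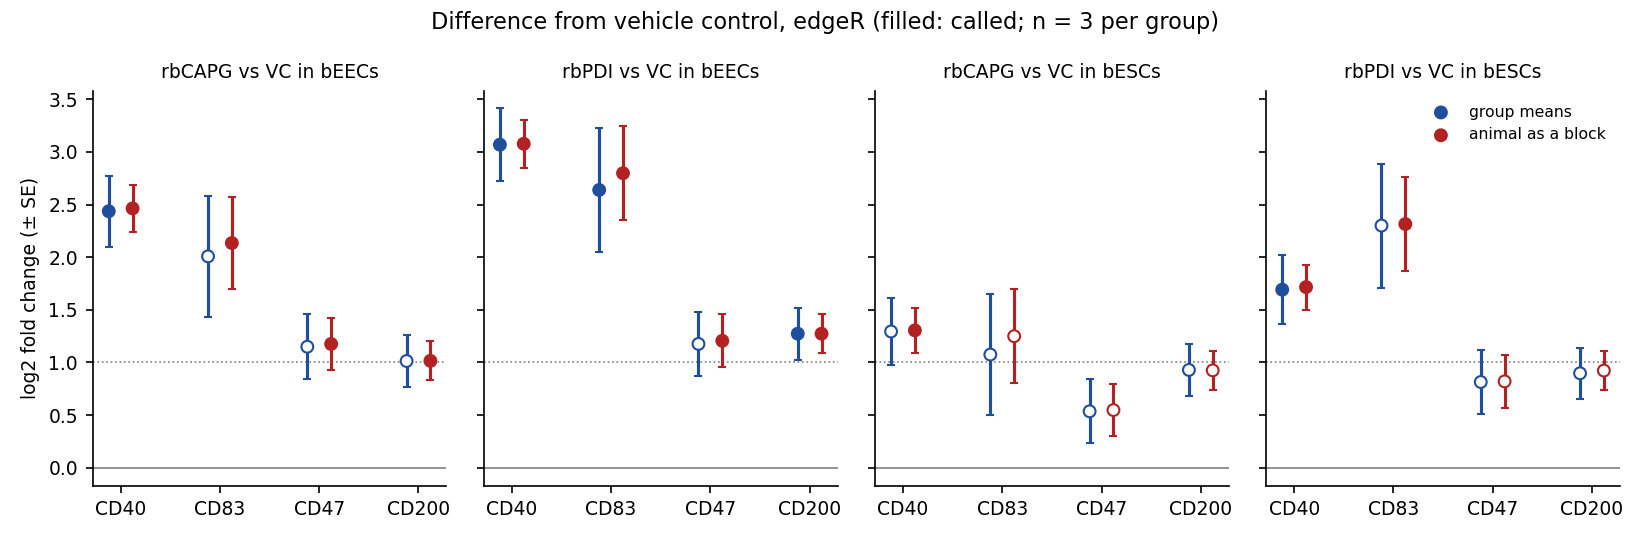
Log2 fold change against VC (vertical axis, ± SE, n = 3 per group) of the 4 genes (horizontal axis) for each protein and cell type, from group means (blue) and with the animal as a block (red). Filled points are called (adjusted p under 0.05 and log2 fold change above 1, the dotted line), and the block makes the errors smaller while the fold changes move little.

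Between the proteins, none of the 4 genes was called by edgeR, and nor was any other gene in either cell type (0.00% of all tested genes). At an unadjusted p under 0.05 there were 103 genes in bEECs and 319 in bESCs, and DESeq2 also called 0. In bEECs, all rbPDI values of CD40 and of CD83 lay above all rbCAPG values, as for 2.14% of all tested genes. The differences of rbPDI minus rbCAPG were 0.63 on the log2 scale for CD40 (95% confidence interval −0.04 to 1.31) and 0.63 for CD83 (−0.53 to 1.79), with an adjusted p of 1 for both. For CD47 the difference in bEECs was 0.03 (−0.61 to 0.67) and for CD200 it was 0.26 (−0.25 to 0.77).

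In bESCs, CD83 was higher with rbPDI than with rbCAPG in all 3 animals, by ratios of 4.08, 1.45 and 1.58, and its groups did not overlap, as for 1.83% of all tested genes. The comparison gave a log2 difference of 1.23 (0.04 to 2.41), an unadjusted p of 0.0439 and an adjusted p of 1. The largest of these ratios comes from the shallowest library, bESC rbPDI sample 1, and without that sample the log2 difference was 0.56 ± 0.55. CD40 differed by 0.40 (−0.27 to 1.07), CD47 by 0.28 (−0.36 to 0.92) and CD200 by −0.03 (−0.54 to 0.48). The intervals reach 1.31 for CD40 and 1.79 for CD83 in bEECs, and 2.41 for CD83 in bESCs. They leave room for differences as large as some of those from VC, so the proteins are not shown to act alike.

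Cell type cannot be told apart from chamber in these comparisons. The bEECs were under flow on the side that received the treatments, and the bESCs were static across the membrane. The cell types differed most in CD200, which was called lower in bEECs than in bESCs with every treatment. The log2 difference of bEECs minus bESCs was −1.84 ± 0.25 with VC (adjusted p = 1.66e-05), −1.75 ± 0.25 with rbCAPG (adjusted p = 2.63e-05) and −1.46 ± 0.25 with rbPDI (adjusted p = 1.51e-04). All bEEC samples lay below all bESC samples of the same treatment. These 3 calls held under each of the 12 alternatives run for them, of which dropping the fold limit could not lose a call.

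CD40 was lower in bEECs than in bESCs with VC, by −1.70 ± 0.33 on the log2 scale (adjusted p = 4.82e-04), and this call held under all 12 alternatives. With rbCAPG the difference was −0.55 ± 0.32 (adjusted p = 0.160), and the groups did not overlap. With rbPDI it was −0.32 ± 0.32 (adjusted p = 0.430) and the groups overlapped. The change of CD40 with the protein was larger in bEECs than in bESCs by 1.14 ± 0.45 with rbCAPG (unadjusted p = 0.0219, adjusted p = 1.00) and by 1.38 ± 0.45 with rbPDI (unadjusted p = 0.00752, adjusted p = 0.647), which did not pass the test. With the block the adjusted p-values were 0.213 (range over 18 alternatives 0.213 to 1.00) and 0.0748 (range 0.0748 to 1.00).

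CD83 and CD47 showed the opposite order. With VC their bEEC and bESC samples overlapped, with log2 differences of 0.47 ± 0.58 (adjusted p = 0.520) for CD83 and 0.43 ± 0.30 (adjusted p = 0.252) for CD47. With rbCAPG both were called higher in bEECs, CD83 by 1.40 ± 0.56 (adjusted p = 0.0477) and CD47 by 1.05 ± 0.31 (adjusted p = 0.0100). The call of CD83 was lost when any 1 of the 6 samples was left out (adjusted p from 0.0547 to 0.122). That of CD47 was lost without bEEC rbCAPG sample 2 or bESC rbCAPG sample 1, where the fold change fell under the limit (0.97 and 0.89). With counts scaled by library totals, which moved the median of all genes from 0.01 to −0.34 in this comparison, neither was called, at 1.02 for CD83 (adjusted p = 0.167) and 0.67 for CD47 (adjusted p = 0.0711). With rbPDI, CD83 differed by 0.81 ± 0.55 (adjusted p = 0.243), and it was called without bESC rbPDI sample 1, the shallowest library, at 1.46 (adjusted p = 0.0495). CD47 differed by 0.79 ± 0.30 with rbPDI (adjusted p = 0.0423), which is under the fold limit.

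Called between the cell types were 2 of 4 genes with VC, against 38.5% of all tested genes, 3 of 4 with rbCAPG, against 38.9%, and 1 of 4 with rbPDI, against 37.3%. So many genes differed between the cell types that these counts say little about the set. The change with the protein differed between the cell types for 0 of 4 genes by edgeR, against 0.0669% with rbCAPG and 0.0948% with rbPDI. At an unadjusted p under 0.05 the count was 1 of 4 with each protein (CD40), against 3.42% with rbCAPG and 4.72% with rbPDI. DESeq2 called 0 of 4, against 0.273% and 0.485%.

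**Figure D3:**
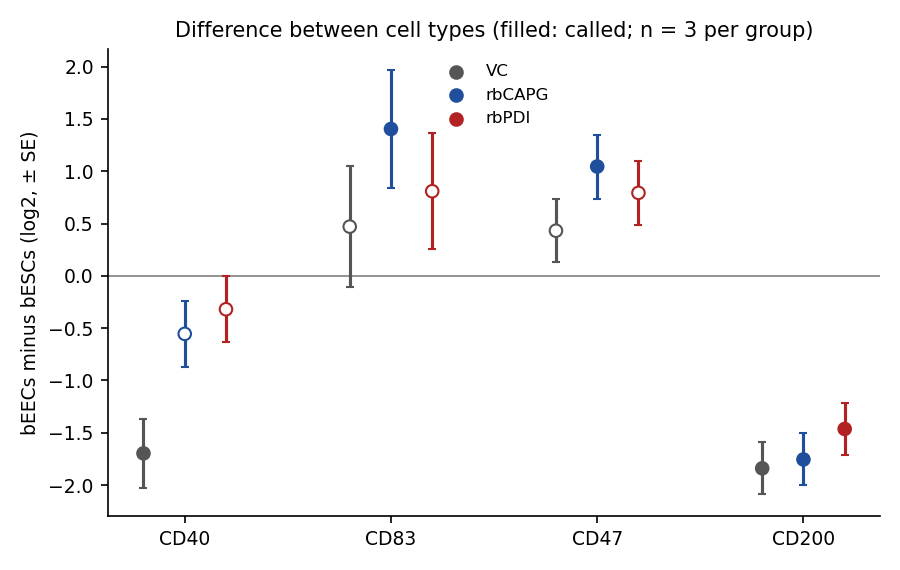
Log2 difference of bEECs minus bESCs (vertical axis, ± SE, n = 3 per group) for the 4 genes (horizontal axis) with VC, rbCAPG and rbPDI. Filled points are called, and CD200 lies between −1.84 and −1.46 with all 3 treatments while CD40 goes from −1.70 with VC to −0.32 with rbPDI.

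The order of the 6 groups differed among the genes. CD40 had its highest mean in bESCs with rbPDI (109 ± 28.2 CPM, SD, n = 3), followed by bEECs with rbPDI (87.6 ± 22.8) and bESCs with rbCAPG (82.9 ± 29.3), and these 3 neighbours overlapped. Below them, without overlap between neighbours, came bEECs with rbCAPG (56.5 ± 4.51), bESCs with VC (33.8 ± 11.4) and bEECs with VC (10.4 ± 3.20).

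CD83 was highest in bEECs with rbPDI (12.5 ± 1.58 CPM), above bEECs with rbCAPG (8.04 ± 1.48), which overlapped bESCs with rbPDI (7.22 ± 4.69). Then came bESCs with rbCAPG (3.04 ± 0.427), bEECs with VC (mean 2.00) and bESCs with VC (1.46 ± 0.891), each of which overlapped its neighbour. The SDs of CD83 were wide beside its means, and its estimated biological coefficient of variation was 0.471, against 0.284 for CD40, 0.271 for CD47, 0.226 for CD200 and 0.360 over all genes.

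CD47 separated into bEECs with rbPDI (679 ± 90.3 CPM) and bEECs with rbCAPG (666 ± 94.8), which overlapped, and the 4 other groups below them. Those were bESCs with rbPDI (392 ± 101), bESCs with rbCAPG (323 ± 61.1), bEECs with VC (300 ± 105) and bESCs with VC (223 ± 75.3), each overlapping its neighbour. In CD200 the cell types separated instead. All 3 bESC groups (125 ± 30.9 CPM with rbCAPG, 122 ± 22.2 with rbPDI and 65.7 ± 16.1 with VC) lay above the bEEC groups with rbPDI (44.4 ± 8.55), rbCAPG (37.1 ± 6.34) and VC (18.4 ± 3.44).

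Of 24 listed genes of CD40 and NF-kB signalling, 9 have an identifier, all of them through the study's lists for rbCAPG, so the counts are not independent evidence of a direction. In bEECs, 8 of 9 were called higher and 0 lower with each protein, where 0.513% of all tested genes were called with rbCAPG and 0.809% with rbPDI. The list had a median log2 fold change of 2.18 with rbCAPG, against 0.02 over all tested genes, and 2.21 with rbPDI, against −0.01. In bESCs, 5 of 9 were called higher and 0 lower with each protein, where 0.0948% and 0.178% of all tested genes were called, and the medians were 1.72 and 1.70, against −0.01 and 0. With the animal as a block the counts were 8 of 9 in bEECs with each protein, against 2.19% and 2.96%, and 7 and 8 of 9 in bESCs with rbCAPG and rbPDI, against 0.480% and 1.05%. With counts scaled by library totals they were 4 and 6 of 9 in bEECs, against 0.296% and 0.569%, and 3 and 3 of 9 in bESCs, against 0.0781% and 0.145%. All 9 fold changes were above 0 in each of these comparisons.

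NFKBIA, the inhibitor that holds NF-kB in the cytoplasm and is itself induced by it, rose in bEECs from 30.2 ± 11.6 CPM with VC to 299 ± 31.0 with rbCAPG (log2 fold change 3.30 ± 0.28, adjusted p = 9.24e-06) and 338 ± 58.3 with rbPDI (3.48 ± 0.29, adjusted p = 3.93e-06). In bESCs it rose by 1.75 ± 0.27 with rbCAPG and 1.81 ± 0.27 with rbPDI. TNFAIP3 and TNIP1, a ubiquitin-editing enzyme and its partner that limit NF-kB signalling, rose in both cell types with both proteins, by 2.26 to 2.61 on the log2 scale for TNFAIP3 and 1.52 to 2.15 for TNIP1. BIRC3, a ubiquitin ligase of the TRAF complexes that CD40 uses, rose by 1.79 to 2.70, and NFKBIZ, a nuclear regulator of NF-kB targets, by 1.58 to 2.21. MAP3K8, a kinase downstream of CD40, rose in bEECs by 2.19 with rbCAPG and 2.53 with rbPDI, while in bESCs its differences did not pass the test (adjusted p = 0.443 and 0.119). With the animal as a block MAP3K8 was called in bESCs with each protein as well.

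The last 3 of these 9 genes are named, outside the naming rule, so that the list is complete. NFKB1 and NFKB2, which encode NF-kB subunits, rose in bEECs by 1.13 and 1.36 with rbCAPG and by 1.29 and 1.52 with rbPDI, and neither was called in bESCs by edgeR with group means. NFKB2 was called in bESCs with rbPDI when the animal was a block. IRF1, a transcription factor of the interferon response, was called in no comparison with VC by edgeR with group means. Its log2 differences were 0.29 and 0.61 in bEECs and 1.43 and 1.42 in bESCs. IRF1 was called in bESCs with each protein when the animal was a block.

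**Figure D4:**
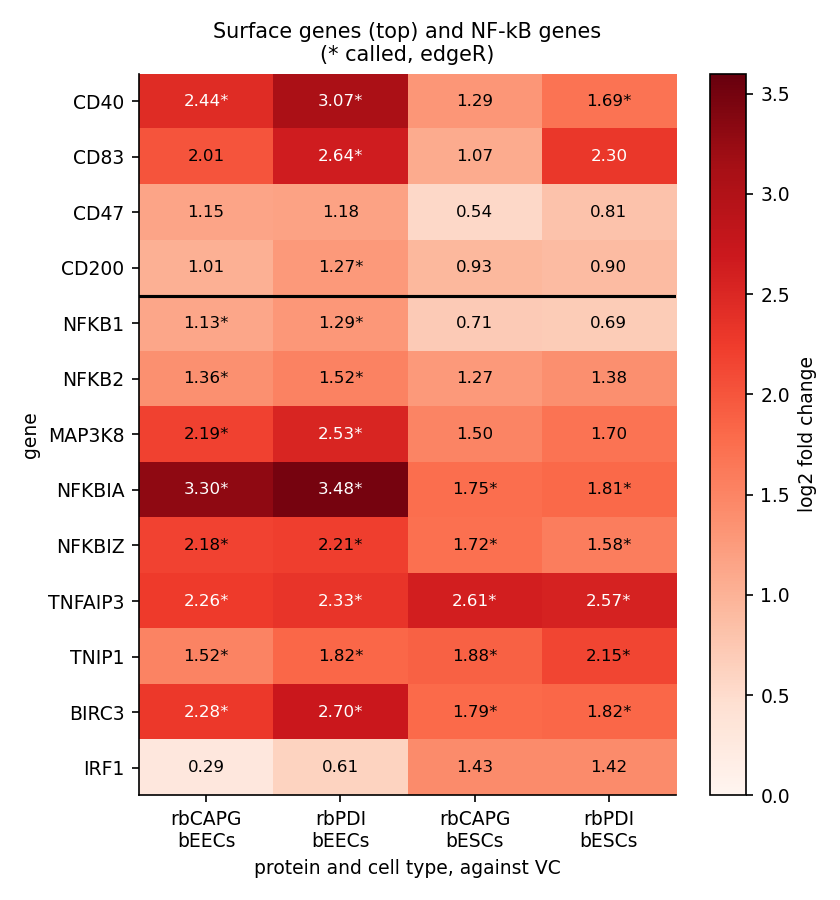
Log2 fold change against VC (colour and printed value) of the 4 surface genes, above the line, and the 9 genes of CD40 and NF-kB signalling, below it (vertical axis), for each protein and cell type (horizontal axis). Stars mark called genes, and all 13 genes have positive values in all 4 columns.

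Of 32 other listed genes of costimulation and immune checkpoints, 3 have an identifier (TNFRSF9, TNFSF15 and SLAMF8). TNFRSF9, a costimulatory receptor of activated T cells that is also known as 4-1BB, lay between 0.538 and 0.704 CPM in VC bEECs. It was between 4.34 and 10.6 CPM with rbCAPG (log2 difference 3.58 ± 0.92, adjusted p = 0.127) and between 12.7 and 25.4 CPM with rbPDI, where it was called (4.78 ± 0.96, adjusted p = 0.0233). The block called it in bEECs with rbCAPG and in bESCs with rbPDI as well. TNFSF15, a TNF family ligand that costimulates T cells, lay between 4.17 and 7.45 CPM in VC bESCs and rose there with rbCAPG (3.98 ± 0.65, adjusted p = 0.0225) and rbPDI (3.84 ± 0.64, adjusted p = 0.0164). In bEECs TNFSF15 was at 229 ± 109 CPM with VC, and its differences of −0.11 and −0.13 did not pass the test. SLAMF8, a surface protein of myeloid cells, was called in none of the 4 comparisons with VC by edgeR with group means. It was called in bESCs with each protein when the animal was a block.

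The markers of cell types that have an identifier, 4 of 14 stromal ones among them, stand in the study's lists of genes that responded to rbCAPG, so their direction with that protein is not independent evidence. The summed level of the 4 stromal markers was 6.13, 13.5 and 7.51 CPM in VC bEECs, 15.2, 20.7 and 44.2 CPM with rbCAPG and 10.4, 25.0 and 30.8 CPM with rbPDI. In bESCs the same sum lay between 175 and 197 CPM with VC, 199 and 346 CPM with rbCAPG and 190 and 278 CPM with rbPDI. None of the 4 was called in bEECs with either protein by edgeR with group means. With the animal as a block 4 of 4 were called higher with rbCAPG, against 2.19% of all tested genes, and 1 of 4 (ZEB1) with rbPDI, against 2.96%. The summed level of the 3 epithelial markers in bEECs was 565 to 1399 CPM with VC, 2818 to 4149 CPM with rbCAPG and 2652 to 4198 CPM with rbPDI. None of these 3 was called in bEECs by edgeR with group means, and 2 of 3 (MUC1 and AGR2) were called higher with each protein under the block. The part of stromal RNA in the differences of CD200 and CD40 was not tested.

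The 3 immune markers with an identifier, of 14 listed, were CD14 and AIF1, known from monocytes and macrophages, and SELP, known from platelets and endothelium. Their summed level in bEECs was 15.7 to 24.6 CPM with VC, 57.5 to 73.9 CPM with rbCAPG and 57.5 to 108 CPM with rbPDI. CD14 was called higher in bEECs with rbPDI (2.35, adjusted p = 0.0421), where 0.809% of all tested genes were called. That call was lost when counts were scaled by library totals. With the block 2 of 3 immune markers were called with rbCAPG, against 2.19% of all tested genes, and 3 of 3 with rbPDI, against 2.96%. In bESCs the sum was 121 to 219 CPM with VC, 336 to 652 CPM with rbCAPG and 96.1 to 524 CPM with rbPDI, nearly all of it SELP, and AIF1 had at most 3 counts in any bESC sample. The pan-leukocyte gene PTPRC and the lymphocyte markers have no identifier here. The part of immune cells in the levels of the 4 surface genes was not tested.

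Of 6 endothelial markers, TEK and ESM1 have an identifier. TEK, the defining receptor of the 2, had 1.25 to 29 counts in the bEEC samples and 2 to 23 in the bESC samples, and it was called higher in bEECs with rbPDI (3.23, adjusted p = 0.0442), but not with counts scaled by library totals. ESM1 was at 1014 ± 265 CPM in VC bEECs and was called in no comparison with VC by edgeR with group means. With the block both were called higher in bEECs with each protein, against 2.19% of all tested genes with rbCAPG and 2.96% with rbPDI. In bESCs, epithelial markers stayed near 0, with a summed level of 0.371 to 0.578 CPM with VC, 1.38 to 2.54 CPM with rbCAPG and 1.83 to 3.98 CPM with rbPDI. Of these 3 markers, OCLN was called higher in bESCs with rbPDI (2.82, adjusted p = 0.0402), where 0.178% of all tested genes were called. Its rbPDI samples, at 0.261 to 3.24 CPM on 3 to 139.5 counts, overlapped the VC samples, at 0.227 to 0.308 CPM. With the block 2 of 3 epithelial markers (MUC1 and OCLN) were called higher in bESCs with rbPDI, against 1.05% of all tested genes. With rbCAPG 0 of 3 were called there under the block, against 0.480%.

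**Figure D5:**
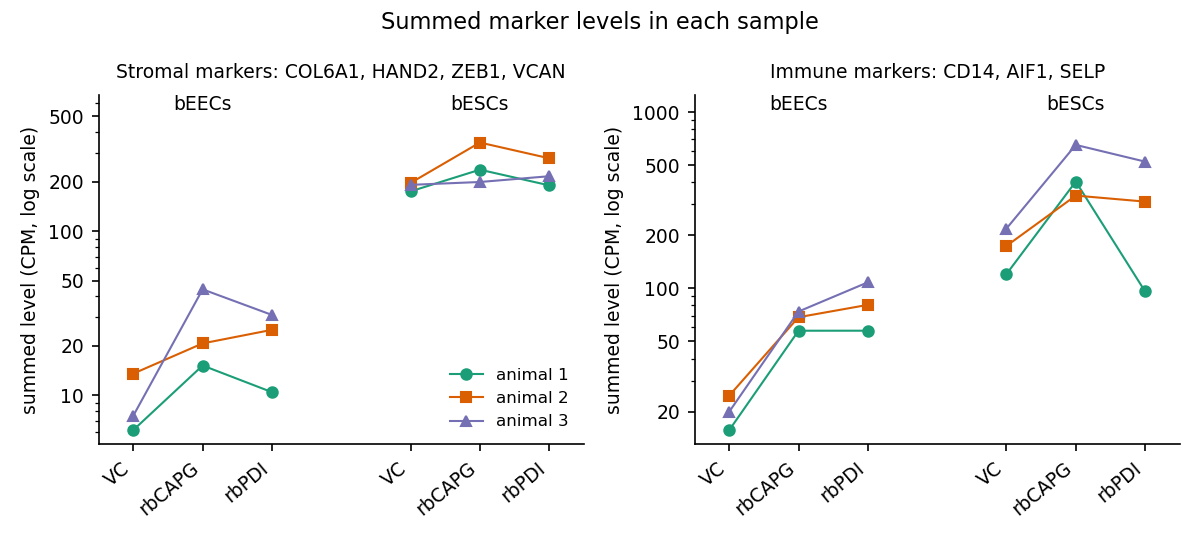
Summed level in CPM (vertical axis, log scale) of 4 stromal and 3 immune markers in each sample, by cell type and treatment (horizontal axis), with lines joining the samples of 1 animal. In bEECs both sums are higher with either protein than with VC in every animal, and the stromal sum in bEECs reaches 44.2 CPM, below the lowest bESC value of 175 CPM.

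Levels were compared across the 18 samples after each cell type was centred on its own mean, which keeps the differences between treatments. The 4 genes were found through the rbCAPG lists and were higher with either protein in each animal, so a positive r was built in. Whether they vary together within a group was not tested. As a description over samples that share treatments and animals, Pearson's r of log2 CPM was 0.90 for CD40 with CD200, 0.87 for CD40 with CD83, 0.75 for CD40 with CD47 and 0.74 for CD83 with CD47. It was 0.72 for CD83 with CD200 and 0.66 for CD47 with CD200. For all 6 pairs but CD40 with CD83 and CD40 with CD200, r was lower over the 9 bESC samples than over the 9 bEEC samples, and CD47 with CD200 gave the lowest, 0.49 in bESCs against 0.78 in bEECs.

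Among genes with a symbol, those whose centred levels were most like CD40 over the 18 samples were the neutrophil-attracting chemokines CXCL2 (r = 0.95), CXCL3 (r = 0.93) and CXCL5 (r = 0.92). For CD47 they were the chemokine GRO1 (r = 0.90), BIRC3 (r = 0.89) and NFKBIZ (r = 0.88). For CD200 they were the chemokine receptor-like gene CCRL2 (r = 0.90), CD40 itself (r = 0.90) and the transcription factor gene NFE2L3 (r = 0.89). CD83 went most closely with IPMK, an inositol phosphate kinase (r = 0.92), BPNT2, a nucleotidase (r = 0.89), and CPOX, an enzyme of haem synthesis (r = 0.88). Only 190 genes have a symbol here, all from the study's lists of genes that responded to rbCAPG, and other genes are not named. Differences between treatments were kept in these levels too, so a high r with such genes reflects in part the response they were listed for.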

How the data were processed

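Gene counts were obtained from 18 RNA samples (6 groups, n = 3, 1 sample per animal). Libraries were made by SMART-Seq amplification without molecular identifiers, so counting error is a lower limit of the error. The table as deposited holds estimated counts without normalization. The authors used Trimmomatic for trimming, STAR for alignment to the ARS-UCD1.3 genome and featureCounts for counting on Ensembl genes, with reads of several matches or several genes divided into fractions (23.3% of values not whole) and no strand option stated. Reads shared by related or overlapping genes cannot be separated.

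Rounded counts were analysed with edgeR 4.0.16 in R 4.3.3. The filterByExpr filter left 17931 of 36075 genes, and counts were scaled by TMM. The quasi-likelihood F-test was fitted with 6 group means over all 18 samples (12 residual degrees of freedom). Adjustment was by Benjamini-Hochberg over the 17931 genes. Called genes had an adjusted p under 0.05 together with a log2 fold change beyond 1 in either direction. SE is the log2 fold change divided by the square root of F. With 3 samples against 3, an exact permutation test of a single gene cannot go below p = 0.1. The test procedures were run on simulated counts with changes planted in bEECs with rbCAPG. The simulation held no animal effect, so it does not show how the tests behave with paired samples.

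Replicate numbers pair the samples, since each stands for 1 animal. Deviations from the group mean correlated between same-numbered samples with a mean r of 0.51 in bEECs and 0.43 in bESCs (lowest pair 0.02), and 0.17 between the cell types. The block was run in edgeR as an alternative, nested within cell type (8 residual degrees of freedom) or, between cell types, shared by both. The other alternatives were DESeq2 1.42.0, its size factors in edgeR, no filter (29859 genes), no fold limit, fits to 1 cell type and each sample left out. Dropping the fold limit reused the main fit, so that alternative could not lose a call. Scaling by TMM or by DESeq2 size factors shifted the median of all genes by under 0.1 on the log2 scale in every comparison. Scaling by library totals, added after seeing the data, gave medians of −0.34, −0.22 and −0.14 between the cell types with rbCAPG, rbPDI and VC, −0.17 for rbCAPG against VC in bEECs and −0.16 for the difference in response to rbCAPG, and within 0.1 in the others.

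The 4 genes, the gene lists and the naming rule were chosen with earlier results of these data known. Genes of a list were named where called in at least 1 of 4 comparisons with VC, at most 6 per list. Symbols came from the study's gene lists (245 identifiers, 190 with a symbol), and 0 identifiers matched the reference gene table, so no coordinates or sequences are given. Total counts ran from 10072851 to 44253149, and the lowest value of any of the 4 genes was 18 counts.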

Additional observations from a re-analysis of the deposited data

How the results depend on the processing

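The number of the 4 genes called moved by over 1.5 times in these cases. In bEECs with rbCAPG it was 1, and 4 by DESeq2 and 4 with the animal (replicate number) as a block. In bESCs with rbCAPG it was 0, and 1 by DESeq2 and 1 with the block. In bESCs with rbPDI it was 1, and 2 by DESeq2, 2 with the block and 0 in a fit to bESCs alone. Between cell types with rbPDI it was 1, and 2 without the fold limit. With counts scaled by library totals, an alternative chosen after seeing the data, it was 1 in place of 3 in bEECs with rbPDI, 0 in place of 1 in bESCs with rbPDI and 1 in place of 3 between cell types with rbCAPG. Under that scaling 0.569%, 0.145% and 41.0% of all tested genes were called in these 3 comparisons, against 0.809%, 0.178% and 38.9% with TMM. That scaling also called 53 genes in place of 92 in bEECs with rbCAPG and 6 in place of 12 for the difference in response to it, and the share of calls that were higher in bEECs than in bESCs with rbCAPG went from 53.0% to 38.5%. Leaving out 1 sample at a time gave 1 to 2 in bEECs with rbPDI (3 with all samples), 0 in bESCs with rbPDI, 1 to 2 between cell types with rbCAPG (3 with all samples) and 1 to 2 with rbPDI. The block changed no other call of the 4 genes than those given here and in the report.

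Over all tested genes, DESeq2 and the block called 275 and 392 in bEECs with rbCAPG against 92, 389 and 531 with rbPDI against 145, 71 and 86 in bESCs with rbCAPG against 17, and 176 and 189 with rbPDI against 32. For the differences between cell types in the response they called 49 and 40 with rbCAPG against 12, and 87 and 79 with rbPDI against 17. Fits to 1 cell type called 149 and 284 in bEECs and 1 and 1 in bESCs. Without a filter, 30 and 54 were called in bESCs and 23 and 27 for the differences in response. With 1 sample left out, the counts ran from 49 to 77 and 75 to 123 in bEECs, from 0 to 20 and 7 to 46 in bESCs, and from 0 to 12 and 6 to 18 for the differences in response.

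Of 600 alternative values of single genes, 546 kept direction and call, 29 lost the call, 14 gained it and 11 changed sign. Only a result called in the main fit can lose its call, and most results were not called there. The 29 losses are therefore not to be read as a share of 600. All 11 values that changed sign were small differences that had not passed the test, 10 of them with 1 sample left out and 1 with library totals (CD200 for the difference in response to rbCAPG, −0.069). They were CD47 for rbPDI against rbCAPG in bEECs (−0.086 to 0.14), CD200 for the same in bESCs (−0.20 to 0.16), CD200 for the difference in response to rbCAPG (−0.13 to 0.30) and CD83 for that to rbPDI (−0.11 to 1.00). The cause of these changes was not tested.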
